A study of Rattus norvegicus with 4 samples.

Results

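Plasminogen activation and clotting control was followed through 9 genes: the plasminogen activators Plau and Plat, the serpins Serpine2 and Serpinf1, the clotting initiator F3 and its inhibitor Tfpi, the protein C pathway genes Thbd and Procr, and the matrix and platelet glycoprotein gene Thbs1. They were chosen by symbol among 14506 genes that had a row of their own on the array, and all 9 were found, each in exactly 1 row. The samples were retroperitoneal white fat, a visceral depot, from male WNIN/Ob rats, a strain with an obese and a lean phenotype. There were 2 obese and 2 lean rats, all 4 months old, untreated and fed stock diet, and each rat gave 1 Affymetrix Rat Gene ST array. The labels give no genotype behind the phenotype. Levels are log2 intensities, and differences are obese minus lean on the log2 scale. Arrays are compared within a gene, by log2 ratios of 2 genes, by medians or sums over gene lists, and by correlation across genes.

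Plasminogen, made mainly by the liver, is cut to plasmin by the urokinase (Plau) and tissue-type (Plat) activators, and plasmin dissolves fibrin and helps to remodel matrix. Clotting starts when tissue factor (F3) binds factor VIIa, a step that Tfpi blocks. It is slowed on endothelium when thrombin bound to thrombomodulin (Thbd) activates protein C held by its receptor (Procr). Fat tissue is a known source of several of these proteins, and obesity is known for a tendency to clot and to lyse clots slowly.

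None of the 9 genes passed limma's test at an adjusted p under 0.05, the threshold used throughout, where 0.841% of all genes tested passed (0.772% higher and 0.0689% lower). At an unadjusted p under 0.05 there was 1 gene of 9, Thbd, beside 15.3% of all genes tested. Thbd was the lower in obese rats, as were 5.33% of all genes at that threshold. Both obese rats lay below both lean rats for 3 of 9 genes (Serpine2, F3 and Thbd), beside 21.3% of all genes, and above both for 0 of 9, beside 26.4%. The median difference of the 9 was -0.083 (0.00047 over all genes tested), and their values ran from -0.63 for Thbd to 0.23 for Tfpi. For 7 of the 9 the wider gap between rats of 1 phenotype exceeded the difference of the means, as it did for 67.1% of all genes. Thbd and F3 were the exceptions. The smallest p that exact two-sided permutation of 4 arrays allows for 1 gene is 0.333, so each p given here draws on limma's pooling of the spread over all genes.

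**Figure D1:**
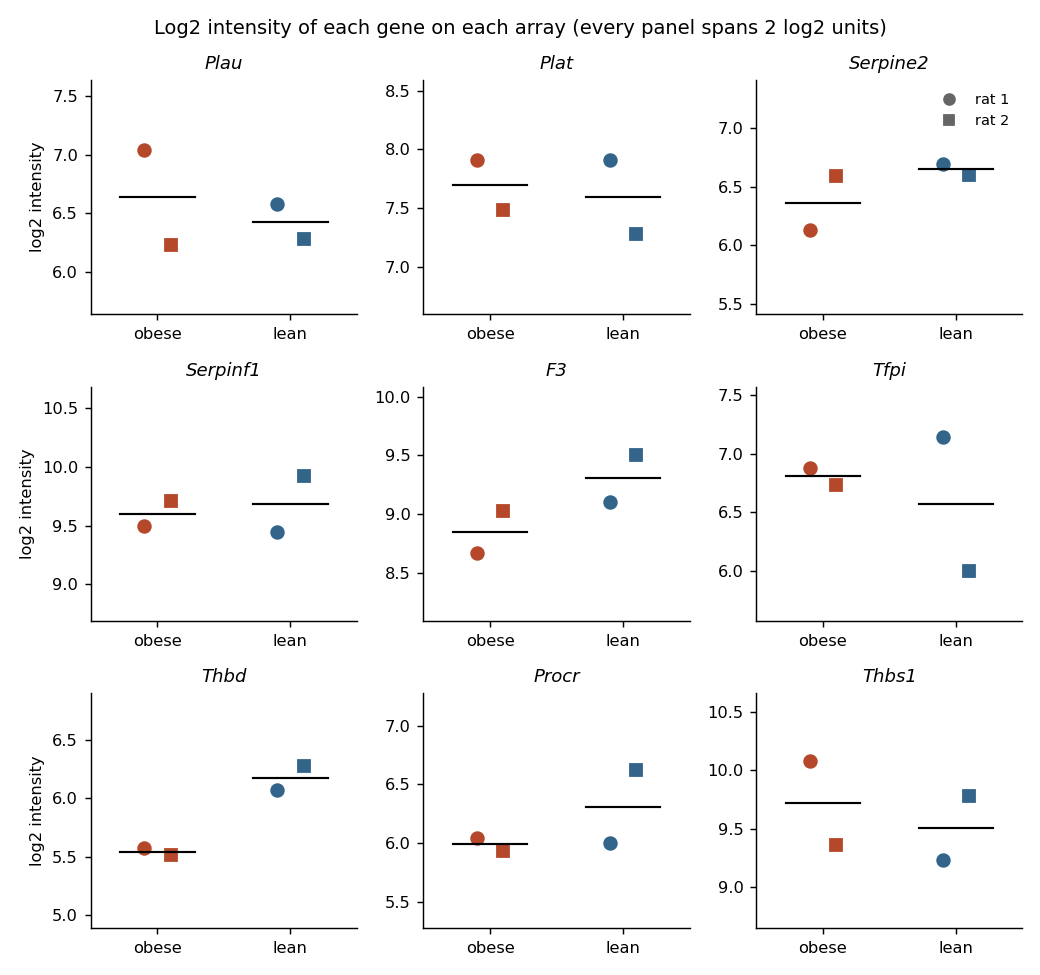
Log2 intensity (vertical axis) of each of the 9 genes in the 2 obese and the 2 lean rats, with circles for rat 1, squares for rat 2 and a bar at the group mean. The groups are clear of each other for Thbd, by little for F3 and Serpine2, and overlap in the other panels.

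The arrays differed in their levels of cell type markers. The obese arrays resembled each other (Pearson correlation across genes 0.984) more than the lean arrays did (0.937). In 6 of the 9 genes the lean gap was the wider, beside 9766 of all 14506 genes tested, a like share. The median of 11 skeletal muscle markers was 5.53 and 5.27 in obese rats 1 and 2, against 11.9 in lean rat 1 and 5.35 in lean rat 2, and their summed intensity was 707 and 512 against 34594 and 674. Lean rat 1 was also the highest in summed intensity of 10 mural markers (2858 and 3278 in obese rats, against 6894 and 4606 in lean rats) and 8 mesothelial markers (243 and 272 against 1066 and 340). Summed macrophage intensity over 14 markers was 13922 and 9621 in the obese rats, against 2815 and 2915 in the lean rats. Differences were above 0 for 13 of the 14, and 6 passed as higher (beside 0.772% of all genes). Over 7 blood and platelet genes the summed intensity was 4513 and 1594 in the obese rats, against 4505 and 8453 in the lean rats. The fat identity of the samples was plain on every array, with Adipoq at 12.0 and 12.3 in obese rats, against 12.1 and 11.9 in lean rats, and Plin1 at 10.2 and 10.5 against 9.99 and 10.2. The part of muscle, mural cells, mesothelium, macrophages or blood in the results for the 9 genes was not tested, and each gene is therefore also given with a rat left out.

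**Figure D2:**
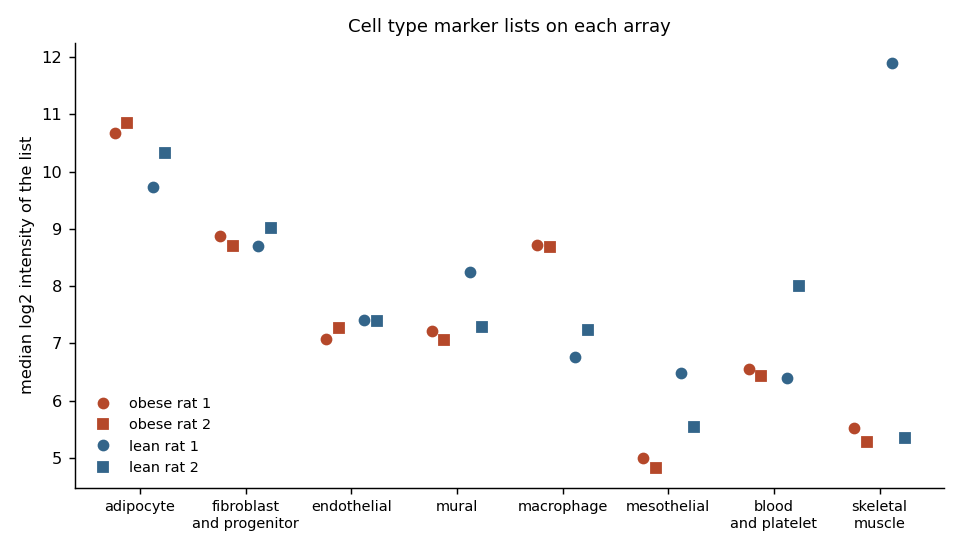
Median log2 intensity (vertical axis) of 8 lists of cell type markers on each array, obese rats in orange and lean rats in blue. Lean rat 1 stands apart in skeletal muscle and is highest in mural and mesothelial markers, and both obese rats stand above both lean rats in macrophage markers.

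Plau, which encodes urokinase, was at 7.04 and 6.23 in obese rats 1 and 2, against 6.58 and 6.28 in lean rats 1 and 2. Obese rat 1 had the highest level and obese rat 2 the lowest, so the lean rats lay between the obese rats. The means were 6.64 ± 0.57 and 6.43 ± 0.21 (SD, n = 2 each), a difference of 0.21 with a 95% interval of -0.55 to 0.98 (limma adjusted p = 0.804). Without obese rat 1 the difference was -0.19, and without obese rat 2 it was 0.62. The interval allows anything between 0.681-fold and 1.97-fold.

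Plat, the tissue-type activator best known from vessel walls, was at 7.91 and 7.48 in obese rats, against 7.91 and 7.28 in lean rats. Rat 1 of each phenotype had almost the same level, and lean rat 2 was the lowest. The difference was 0.10 (95% interval -0.67 to 0.87, limma adjusted p = 0.912). The sign turned without lean rat 2 (-0.21), without obese rat 1 (-0.11) and with quantile normalization (-0.056). Relative to Plat, Plau was at 0.30 and -0.085 in the obese rats, against -0.17 and 0.17 in the lean rats, as a log2 ratio set to 0 at the lean mean. The balance of the 2 activators in the obese rats thus overlapped that in the lean rats.

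Plaur, which encodes the cell surface receptor that holds urokinase, was at 7.63 and 7.36 in obese rats, against 6.84 and 7.81 in lean rats. The lean rats enclosed the obese rats, and the difference was 0.17 (95% interval -0.69 to 1.02, limma adjusted p = 0.867). Plg, the plasminogen gene, was at 5.07 and 5.19 in obese rats, against 4.73 and 5.47 in lean rats. All 4 of these values lay below the 95th percentile of 53 olfactory receptor genes on the same array (5.51 and 5.46 in obese rats, 5.26 and 5.74 in lean rats), which served as a guide to background, so little can be read from them. The 9 genes all lay above that guide on every array.

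Serpine2 encodes protease nexin 1, an inhibitor of thrombin, urokinase and plasmin. It was at 6.13 and 6.59 in obese rats, against 6.70 and 6.60 in lean rats. Both obese rats lay below both lean rats, but obese rat 2 and lean rat 2 were nearly level, and the separation ended when arrays were centred on their medians. The difference was -0.29 (95% interval -0.93 to 0.35, limma adjusted p = 0.661), at -0.060 without obese rat 1 and -0.52 without obese rat 2. Relative to Serpine2, Plau was at 1.14 and -0.13 in obese rats, against 0.099 and -0.099 in lean rats (log2 ratio, lean mean 0), and Plat was at 0.83 and -0.049 against 0.26 and -0.26. Obese rat 1 was therefore the array with the most activator for its Serpine2, while obese rat 2 lay below or within the lean range.

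Serpinf1 encodes pigment epithelium-derived factor, a serpin without protease inhibitor activity that fat cells secrete and that restrains vessel growth. It was at 9.50 and 9.71 in obese rats, against 9.44 and 9.93 in lean rats. The obese rats lay inside the lean range, and the difference was the smallest of the 9 in size, -0.083 (95% interval -0.83 to 0.67, limma adjusted p = 0.928). Its sign turned with median centring (0.016), without obese rat 1 (0.020) and without lean rat 2 (0.16).

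F3, the tissue factor gene, was at 8.67 and 9.03 in obese rats, against 9.10 and 9.51 in lean rats. Both obese rats lay below both lean rats, with 9.03 and 9.10 as the nearest pair. The means were 8.85 ± 0.25 and 9.30 ± 0.29 (SD, n = 2 each), a difference of -0.46 or 0.728-fold. Its 95% interval was -1.20 to 0.29 (limma adjusted p = 0.536). The value stayed below 0 under every alternative run, from -0.26 without lean rat 2 to -0.66 without lean rat 1, at adjusted p of 0.208 to 1 over the alternatives.

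Tfpi, which encodes the inhibitor of the tissue factor and factor VIIa complex, was at 6.88 and 6.73 in obese rats, against 7.15 and 6.00 in lean rats. The lean rats differed by 1.14, the widest gap within a phenotype among the 9 genes, and the obese rats lay between them. The difference was 0.23 (95% interval -0.66 to 1.12, limma adjusted p = 0.817). It was 0.80 without lean rat 1 and -0.34 without lean rat 2, so its direction depended on which lean rat was kept. Lean rat 1, with the higher Tfpi, is also the array with the highest list medians for skeletal muscle, mural and mesothelial markers. The mural genes were mixed, with Rgs5 highest in lean rat 2 and Pdgfrb highest in obese rat 1. The part of these tissues in Tfpi was not tested. Relative to Tfpi, F3 was at -0.95 and -0.44 in obese rats, against -0.77 and 0.77 in lean rats (log2 ratio, lean mean 0). The initiator and its inhibitor thus kept an overlapping ratio in the phenotypes, with lean rat 2 apart from the other 3 arrays.

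Thbd, the thrombomodulin gene, was at 5.58 and 5.51 in obese rats, against 6.07 and 6.27 in lean rats. The obese rats were close together and clearly below both lean rats. The means were 5.54 ± 0.044 and 6.17 ± 0.14 (SD, n = 2 each), a difference of -0.63 with an SE of 0.24, or 0.647-fold. The 95% interval of -1.18 to -0.075 did not reach 0, but the gene did not pass over all genes tested (limma adjusted p = 0.279, unadjusted p = 0.031). Over all alternatives it ran from -0.49, with 16 added before the log, to -0.73 without lean rat 1, and its adjusted p from 0.079 to 0.968. The obese levels were just above the background guide of 5.51 and 5.46 on the same arrays. Background itself was lower on the obese arrays, where the median of the 53 olfactory receptor genes was 3.18 and 3.25, against 3.58 and 4.07 in lean rats. Gene by gene their median difference was -0.38, and 24 of the 53 had both obese rats below both lean rats. With quantile normalization that median was -0.17, and Thbd was at -0.62. The part of background in the difference of Thbd was not tested.

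Procr, the endothelial protein C receptor gene, was at 6.05 and 5.93 in obese rats, against 6.00 and 6.62 in lean rats. Lean rat 1 was level with the obese rats and lean rat 2 was high alone. The difference was -0.32 (95% interval -0.99 to 0.34, limma adjusted p = 0.639), at -0.011 without lean rat 2 and -0.63 without lean rat 1. Thbd relative to Procr was at -0.33 and -0.28 in obese rats, against 0.21 and -0.21 in lean rats (log2 ratio, lean mean 0). Both obese rats lay below both lean rats in this ratio, by little against lean rat 2.

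Thbd and Procr are known best from endothelium, and endothelial markers are given beside them. Of 13 such markers none passed and the median difference was -0.28. Both obese rats lay below both lean rats for 6 (21.3% of all genes) and above them for 1 (26.4% of all genes). That 1 was the receptor gene Tie1, with a difference of 0.82 (limma unadjusted p = 0.031, adjusted p = 0.283). At an unadjusted p under 0.05 by limma there were 4 of 13 (30.8%, beside 15.3% of all genes). Besides Tie1 these were Emcn (-1.19), Plvap (-0.89) and Kdr (-0.74), all 3 lower in obese rats. Their summed intensity was 2277 and 2257 in obese rats, against 2769 and 2812 in lean rats. Pecam1 was at 8.11 and 8.50 in obese rats, against 8.79 and 8.80 in lean rats, and Cdh5 at 7.08 and 7.52 against 7.41 and 7.67. Differences were below 0 for 10 of the 13 markers and above 0 for 3, so most but not all were lower in obese rats. The part of endothelial content in the values of Thbd and Procr was not tested, and in whole tissue fewer cells of a type and less RNA per cell cannot be told apart.

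Thbs1 encodes thrombospondin 1, a glycoprotein of platelet granules and matrix that restrains vessel growth and activates latent TGF-beta. It was at 10.1 and 9.36 in obese rats, against 9.24 and 9.78 in lean rats. Obese rat 1 was highest and lean rat 1 lowest, with the other two arrays between them. The difference was 0.21 (95% interval -0.65 to 1.07, limma adjusted p = 0.828) and turned below 0 without obese rat 1 (-0.14) and without lean rat 1 (-0.061). The platelet gene Pf4 was at 6.54 and 7.12 in obese rats, against 6.38 and 8.01 in lean rats, with rat 2 the higher in each phenotype. Platelet genes did not share 1 order of the rats. Gp9, at 5.34 and 4.92 in obese rats, against 4.94 and 5.48 in lean rats, had the same higher rat in each phenotype as Thbs1. Ppbp went as Pf4, and Itgb3 had obese rat 2 and lean rat 1 the higher. Gp9 and Ppbp lay below the background guide on all 4 arrays. The part of platelets was not tested.

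**Figure D3:**
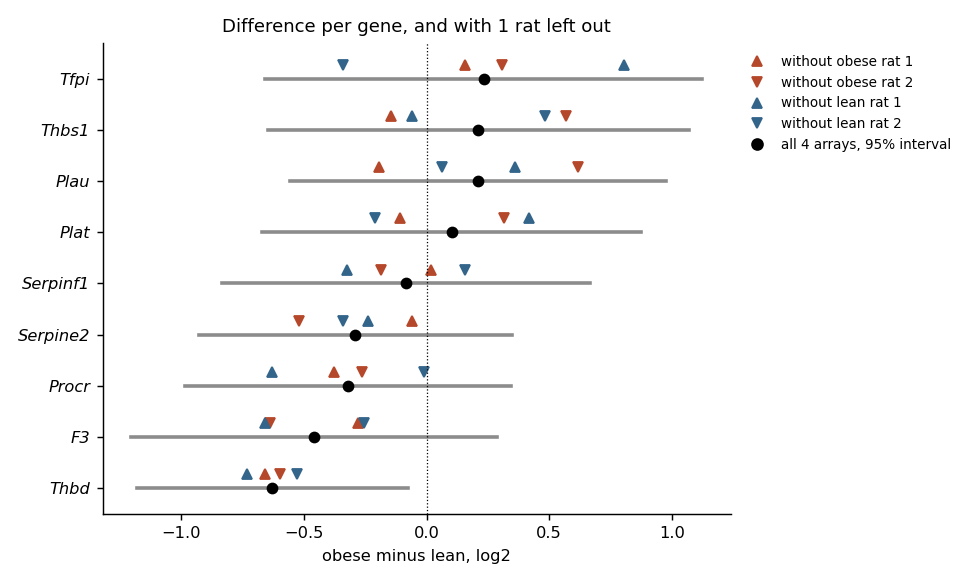
Obese minus lean difference on the log2 scale (horizontal axis) for the 9 genes, as black points with 95% intervals from limma, and coloured triangles for the same difference with 1 rat left out. The interval of Thbd lies below 0 and the other 8 include 0, and Plau, Plat, Serpinf1, Tfpi and Thbs1 have triangles on both sides of 0.

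The arrays with high or low levels differed from gene to gene. In the obese rats, rat 1 exceeded rat 2 for Plau, Plat, Tfpi, Thbd, Procr and Thbs1, and rat 2 exceeded rat 1 for Serpine2, Serpinf1 and F3. In the lean rats, rat 1 was the higher for Plau, Plat, Serpine2 and Tfpi. No order of the 4 rats was therefore common to the 9 genes. The genes whose levels followed Tfpi most closely were Zdhhc17, Xpo4 and Fbxo30, at Euclidean distances of 0.029, 0.070 and 0.073 over the 4 arrays, each gene centred on its own mean. For Thbd these were Or7a39, Cth and Apoa4, at 0.032, 0.032 and 0.037. Or7a39, itself an olfactory receptor gene, and Cth lay below the background guide on all 4 arrays, and Apoa4 lay below it in both obese rats. With 4 arrays many genes match a profile closely, so these names are a description only.

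Other genes of the same pathways were read from 5 lists with 54 measured genes of 62. None passed, and the median difference was -0.045. At an unadjusted p under 0.05 there were 4 (7.41%, beside 15.3% of all genes), all of them higher. The obese rats were clear above the lean rats for 14 (beside 26.4% of all genes) and clear below for 10 (18.5%, beside 21.3%), so these shares were at or under those of all genes. Of the 54, 27 lay below the background guide on all 4 arrays, among them 12 of the 19 coagulation factor genes, many of which are known as liver products, and 22 lay above it on all 4.

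In the fibrinolysis list (16 genes, none passing, median 0.023) the 3 smallest p values belonged to genes with other main roles as well. Hgf, the hepatocyte growth factor gene, whose product resembles plasminogen and which urokinase can activate, was at 5.93 and 5.99 in obese rats, against 4.93 and 5.02 in lean rats. Its difference was 0.99 (SE 0.23, limma adjusted p = 0.107), but both lean values lay below the background guide, so its size is uncertain. Anxa2, a phospholipid-binding protein that gathers plasminogen and Plat on cell surfaces, was at 11.5 and 11.1 in obese rats, against 10.1 and 10.2 in lean rats, a difference of 1.18 (SE 0.31, limma adjusted p = 0.154). S100a10, its usual partner, was at -0.012. The glycolytic enzyme Eno1, which can also bind plasminogen, was at 0.88 (limma adjusted p = 0.295). The obese and lean rats did not overlap for these 3 genes, but the genes were picked for small p, so this adds little. In the whole list the obese values were clear above the lean values for 5 of 16 genes (beside 26.4% of all genes). Macrophage markers were also higher in the same obese rats (median difference 1.94), and their part was not tested.

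Among 19 coagulation factors and their processing genes none passed (median -0.053). Mcfd2, a partner in the export of factors V and VIII from the endoplasmic reticulum, was at 7.27 and 7.52 in obese rats, against 6.38 and 6.56 in lean rats, with a difference of 0.92 (limma adjusted p = 0.193). F8, a cofactor made mainly by endothelium, was at 0.52 (limma adjusted p = 0.351). Fgb, the fibrinogen beta chain, was at 4.47 and 4.21 in obese rats, against 4.59 and 5.39 in lean rats, all below the background guide. F13a1, the fibrin-stabilising transglutaminase also found in macrophages, was at 8.34 and 8.61 in obese rats, against 9.11 and 8.37 in lean rats, and at -0.27 its groups overlapped. F9 and Vwf were not analysed here.

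Of 12 anticoagulant genes 0 passed and 0 had an unadjusted p under 0.05 by limma, with a median of -0.25. Differences were below 0 for 10 of the 12, beside 7241 of all 14506 genes tested and 46 of the 53 olfactory receptor genes. Of the 12, 4 lay below the background guide on every array and only 5 above it on every array. The count below 0 thus rests in good part on values near or below background. Nos3, the endothelial nitric oxide synthase, was at 6.43 and 6.58 in obese rats, against 6.98 and 7.21 in lean rats, a difference of -0.59 (limma adjusted p = 0.342). Serpinc1, antithrombin, was one of the 4 below the guide, and Anxa5, which covers exposed phosphatidylserine, was at 0.51. Pros1, the protein C cofactor, was at 8.65 and 9.12 in obese rats, against 9.11 and 9.02 in lean rats, a difference of -0.18. Nos3 thus lay near Thbd in size of difference, and it is also one of the 13 endothelial markers.

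Of the 4 protease-activated receptor genes none passed. The thrombin receptor gene F2r was at 6.74 and 7.29 in obese rats, against 6.76 and 6.36 in lean rats (0.46, limma adjusted p = 0.516), and F2rl1 was at -0.055, while F2rl2 lay below the background guide on all 4 arrays. The receptors of thrombospondin 1, Cd36 and Cd47, had both obese rats above both lean rats, at 0.76 and 0.87 (limma adjusted p = 0.350 and 0.358). Such separation was seen for 26.4% of all genes. Comp, of the thrombospondin family, lay below the background guide on all 4 arrays. Cd36 is also the fatty acid transporter of fat cells, at 11.9 and 11.5 in obese rats, against 11.3 and 10.6 in lean rats. Thbs2, Thbs3 and Thbs4 were not analysed here.

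**Figure D4:**
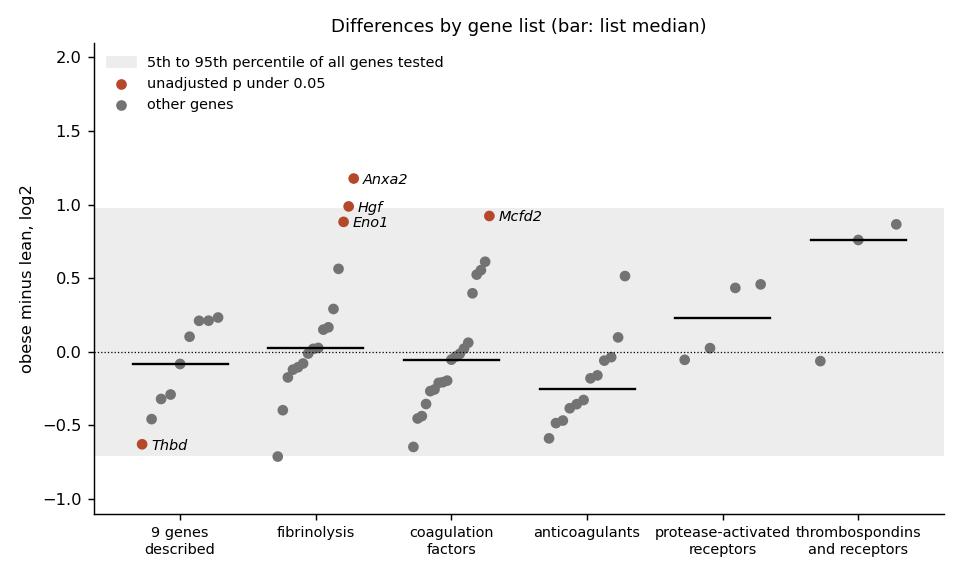
Obese minus lean difference on the log2 scale (vertical axis) of each gene, in the 9 genes described and in 5 lists of other pathway genes, with a bar at the list median and grey shading from the 5th to the 95th percentile of all genes tested. Thbd, Anxa2, Hgf, Eno1 and Mcfd2, in orange, had an unadjusted p under 0.05, and none passed after adjustment.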

How the data were processed

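The deposited intensities are on a linear scale, 1 for each row of each array. Per the submitters' processing notes the method was RMA, with software and version not given in the sources used here. RMA normally normalizes arrays to a shared distribution. Intensities were log2 transformed with no pseudocount, since all were above 0. The platform's annotation gave 15310 of 29214 rows exactly 1 symbol, and for genes with several rows the row with the highest mean was kept (14506 genes, no filter on low values). All 9 genes matched RefSeq by gene ID. Obese and lean rats, grouped by sample title, were compared by limma (version 3.58.1, R 4.3.3, lmFit, eBayes with a trend, Benjamini-Hochberg over all genes, threshold 0.05), and the procedure was tested on simulated data. Intervals are 95% intervals from the same fit. The small number of arrays limits precision, and array medians were 39.9 and 39.9 in obese rats, against 41.0 and 44.5 in lean rats. The interquartile range of log2 levels over genes was 2.65 and 2.73 in obese rats, against 2.54 and 2.05 in lean rats. Lean rat 2 thus had the narrowest range, and the deposited arrays did not share 1 distribution over these genes.

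The 9 genes, the lists and the markers were chosen with earlier results of these data known. Named genes are the 9, the 3 smallest p and fixed genes of each pathway list, defining genes of marker lists, and the 3 closest profiles to the highest and lowest difference. S100a10, Tie1, Emcn, Plvap, Kdr, Gp9, Ppbp, Itgb3 and the background guide from olfactory receptor genes were chosen after values were seen. The defining marker genes given no value in the results are Adgre1 (0.69), Cd68 (2.04), Pdgfra (0.21), Dpt (-0.67), Msln (-0.23), Rgs5 (-0.64), Pdgfrb (0.69), Ckm (-3.10), Acta1 (-2.82) and Hbb-b1 (-1.82), given as obese minus lean, and Upk3b was not analysed here. Median differences of the other marker lists were 0.29 for adipocyte, -0.058 for fibroblast and progenitor, -0.92 for mesothelial, -0.55 for mural, 1.94 for macrophage, -3.10 for skeletal muscle and -0.75 for blood and platelet genes. Alternatives were other scalings, variance models, filters, row rules, a block for rat number and each rat left out. Deviations of same-numbered rats correlated at 0.020 across genes, and the labels tie no obese rat to a lean rat. Figures were drawn with matplotlib 3.10.9.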

Additional observations from a re-analysis of the deposited data

How the results depend on the processing

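None of the 9 genes was called under any of the 14 alternatives, and Serpine2, F3, Thbd and Procr stayed below 0 in all of them. Of 126 values for single genes, 10 changed direction. Without obese rat 1 these were Plau (-0.19), Plat (-0.11), Serpinf1 (0.020) and Thbs1 (-0.14), without lean rat 2 Plat (-0.21), Serpinf1 (0.16) and Tfpi (-0.34), without lean rat 1 Thbs1 (-0.061), with quantile normalization Plat (-0.056), and with median centring Serpinf1 (0.016). At the other end of the values with 1 rat removed were Plau (0.62), Plat (0.42), Serpinf1 (-0.32), Tfpi (0.80) and Thbs1 (0.57). The median of the 9 was between -0.24 and -0.14 when 1 rat was removed and between -0.27 and 0.016 otherwise. The number of the 9 with both obese rats below both lean rats was 2 with median centring (beside 15.8% of all genes). With a rat left out, fewer arrays make separation easier, and the obese values lay below the lean values for 3 to 5. The counts were 5 without obese rat 1 (beside 29.2% of all genes) and 3 without obese rat 2 (35.1%). They were 5 without lean rat 1 (44.9%) and 4 without lean rat 2 (31.8%). In the same order, 0, 3, 2 and 2 of the 9 lay above. Pathway genes called numbered 0 to 4 when 1 rat was removed, the 4 being Cd47, Fgb, Hgf and Hrg without lean rat 1. Over all genes tested 122 were called, against 75 with quantile normalization, 262 with a robust variance model, 185 of all rows, and 268 to 1081 with a rat left out. With the rat number as a replicate block the count was 327 and that block changed no call among the 9 genes. Of the 122, 112 were higher (91.8%), but 77.7% were with the block, 48.1% over all rows, and 40.9% to 66.0% with 1 rat removed, so that direction depends on the setting. Without a lean rat the spread comes from the obese rats alone.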
